A study of Mus musculus with 8 samples.

Results

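Reads inside the introns of genes spanning 100 kb or more were followed over 2 internal days in mouse liver. An intron was taken when it belonged to the main transcript of such a gene, overlapped no exon of any other annotated transcript, and held a mean of 20 or more reads per library. The main transcript is the one with the largest summed expression value of its gene. Gene length here is the span of that transcript. A gene with a short main transcript thus counts as shorter, whatever its other transcripts span. Of 24143 named genes, 1605 had a main transcript of that length. These held 25647 introns, 22052 of them free of other exons, and 995 introns in 443 genes passed the read limit. The same rule without the length limit gave 6819 introns in all, so that 5824 came from shorter genes.

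The livers came from wild-type C57/BL6 mice kept in constant darkness after a light and dark schedule, and the labels give neither sex nor age. One library of polyadenylated RNA was made every 6 h, the first at CT23 and the last at CT65, where CT counts hours of the internal clock, and CT23, CT41, CT47 and CT65 fall in the subjective night. Each library pooled the RNA of 3 animals, and no time has a second library. Times 24 h apart repeat a clock phase, and p-values cover the spread of the 8 pools around a fitted 24-h curve.

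An intron is transcribed with its gene and removed by splicing, so its reads come mostly from RNA that is being made or has not yet been processed. RNA polymerase moves along a gene at a limited speed, so that the far end of a long gene is transcribed later than its start. Polyadenylated selection keeps finished messages, and intron reads that survive it are few. RNA whose transcription has not reached the end of the gene is largely lost in that selection.

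For 7 of the 9 genes whose introns were called rhythmic below, RefSeq start sites were at hand on GRCm38.p6, with 10 start windows between them. The 4 windows shown belong to the clock, bile and lipid genes, whose called introns peaked in the subjective night. Arntl and Lipc have 2 windows each, of which the one with a motif match is shown, and the other holds none of the motifs searched. Each runs from 250 bases before to 50 after the start, in the direction of transcription. Capitals mark AGGTCA or its reverse complement, the half-site of the RORE element that ROR and REV-ERB receptors bind.
Npas2, chr1:39194022-39194321, plus strand: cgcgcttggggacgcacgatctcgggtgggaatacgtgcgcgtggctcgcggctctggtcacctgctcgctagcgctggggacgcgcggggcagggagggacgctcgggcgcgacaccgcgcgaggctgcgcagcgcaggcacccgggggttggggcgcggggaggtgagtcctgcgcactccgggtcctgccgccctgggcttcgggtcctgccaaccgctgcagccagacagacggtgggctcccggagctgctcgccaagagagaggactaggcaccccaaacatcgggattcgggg
Arntl, second of its listed starts, chr7:113207261-113207560, plus strand: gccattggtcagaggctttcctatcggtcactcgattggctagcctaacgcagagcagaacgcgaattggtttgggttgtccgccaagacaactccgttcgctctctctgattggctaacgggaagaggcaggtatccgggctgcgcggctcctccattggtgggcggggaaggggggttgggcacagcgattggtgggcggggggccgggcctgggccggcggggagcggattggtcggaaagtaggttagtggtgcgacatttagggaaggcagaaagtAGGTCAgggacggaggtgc
Abcb11, chr2:69342567-69342866, minus strand: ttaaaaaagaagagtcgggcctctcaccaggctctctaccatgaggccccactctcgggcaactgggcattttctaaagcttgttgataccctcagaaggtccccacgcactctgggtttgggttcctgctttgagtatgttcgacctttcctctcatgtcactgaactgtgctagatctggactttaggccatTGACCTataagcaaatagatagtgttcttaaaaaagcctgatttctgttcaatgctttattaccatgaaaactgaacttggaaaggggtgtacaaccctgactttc
Lipc, chr9:70934759-70935058, minus strand: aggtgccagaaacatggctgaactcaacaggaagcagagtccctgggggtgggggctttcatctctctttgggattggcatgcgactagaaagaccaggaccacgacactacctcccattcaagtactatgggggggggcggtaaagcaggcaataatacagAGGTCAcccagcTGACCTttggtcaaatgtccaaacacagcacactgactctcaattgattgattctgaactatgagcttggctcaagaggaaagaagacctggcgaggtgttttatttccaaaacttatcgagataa
The longer letters TAGGTCA stood in the Arntl window shown and, reversed, in the Abcb11 window, against 2.61% of all 32851 RefSeq windows of this length. AGGTCA stood in 16.3% of all windows and occurred 2 times in the Lipc window shown. Neither was in the Npas2 window, nor in those of Gfra1, Dapk1 and Adra1b. Like Npas2, Dapk1 and Adra1b had called introns with a peak in the subjective night. The E-box CACGTG (7.15% of all windows) and the D-box TTANGTAA (2.32%) were in none of the 10 windows. All motifs were searched on both strands, and a match is a description of letters only. Introns themselves are given in mm9 coordinates, as deposited.

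The member introns were long and thinly covered. Their median length was 28.1 kb, up to 487 kb, against 1.90 kb for the introns of shorter genes. The median intron held 39.2 reads per library, close to the 40.4 of shorter genes. Per length its level was 0.141 RPKM (reads per kb of length, scaled to the depth of the library), against 1.96 RPKM in shorter genes. Set against its own transcript, the median member intron had 2.26% of the RPKM, against 4.59% for introns of shorter genes. Each gene was cut into 3 sections of equal length. By their midpoints, 440 members lay in the last section, 267 in the middle section and 288 in the first section. The first intron of the gene accounted for 197 of them, and 223 genes had a single member. At the limits, intron 2 of Inpp5d came from the shortest gene taken, of 100.2 kb, and intron 3 of Hdac8 from the longest left out, of 99.4 kb. Intron 4 of Mctp2 was the last one inside the read limit, and intron 32 of Tns1 with 19.9 mean reads the first one outside.

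The libraries differed in how much intron RNA they held. Relative to the geometric mean over libraries, the median intron stood at a log2 level of -0.69 in CT35 and 0.24 in CT59, which are the same phase on 2 days, and between -0.06 and 0.14 in the other 6. CT35 was also the deepest library, with 22.9 M reads behind 1 RPKM unit against 11.7 to 13.9 M in the rest. Intron levels below are therefore RPM (reads scaled to library depth) after division by that median. The summed level of 7 hepatocyte markers lay between 44499 RPKM in CT23 and 73328 RPKM in CT35. Markers of endothelium, leukocytes, stellate cells and cholangiocytes summed to between 17.2 and 82.8 RPKM in every library, and none was at 0. No member intron belonged to one of these markers. Only a marker with a main transcript of 100 kb or more could hold a member. That of Dock2 spanned 1.11 kb, that of Stab2 7.10 kb and that of Reln 11.2 kb. In bulk liver, fewer cells of a type and less RNA per cell cannot be told apart.

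A 24-h component was called in 14 member introns of 9 genes, which is 1.41% of 995 against 2.61% of all 6819 introns tested and 2.82% of those of shorter genes (limma F test of a 24-h cosine, Benjamini-Hochberg adjusted p under 0.05 over all introns). At an unadjusted p under 0.05 the shares were 13.7% of members and 15.5% of all introns. Of the 14, 7 peaked nearest CT23, 5 nearest CT11, 2 nearest CT17 and 0 nearest CT5. Of the 164 called introns of shorter genes, 41 peaked nearest CT23, 78 nearest CT11, 22 nearest CT17 and 23 nearest CT5. The members nearest CT11 came from Gfra1 and Zbtb16 alone, and those nearest CT17 from Adra1b and Dapk1, with Dapk1 at the border to CT23. The 14 had a median fitted swing, peak over trough, of 4.32-fold, a log2 difference of 2.11, against a median log2 difference of 0.59 over all members. The call is a test of that same fitted curve, so a larger swing in the called introns follows from how they were picked. The count rested on single libraries: 2 introns were called without CT23 or without CT47, 7 without CT59 or without CT65, and 34 without CT35. With the deposited RPKM scale in place of the intron median, 2 introns were called, those of Npas2 and Arntl.

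**Figure D1:**
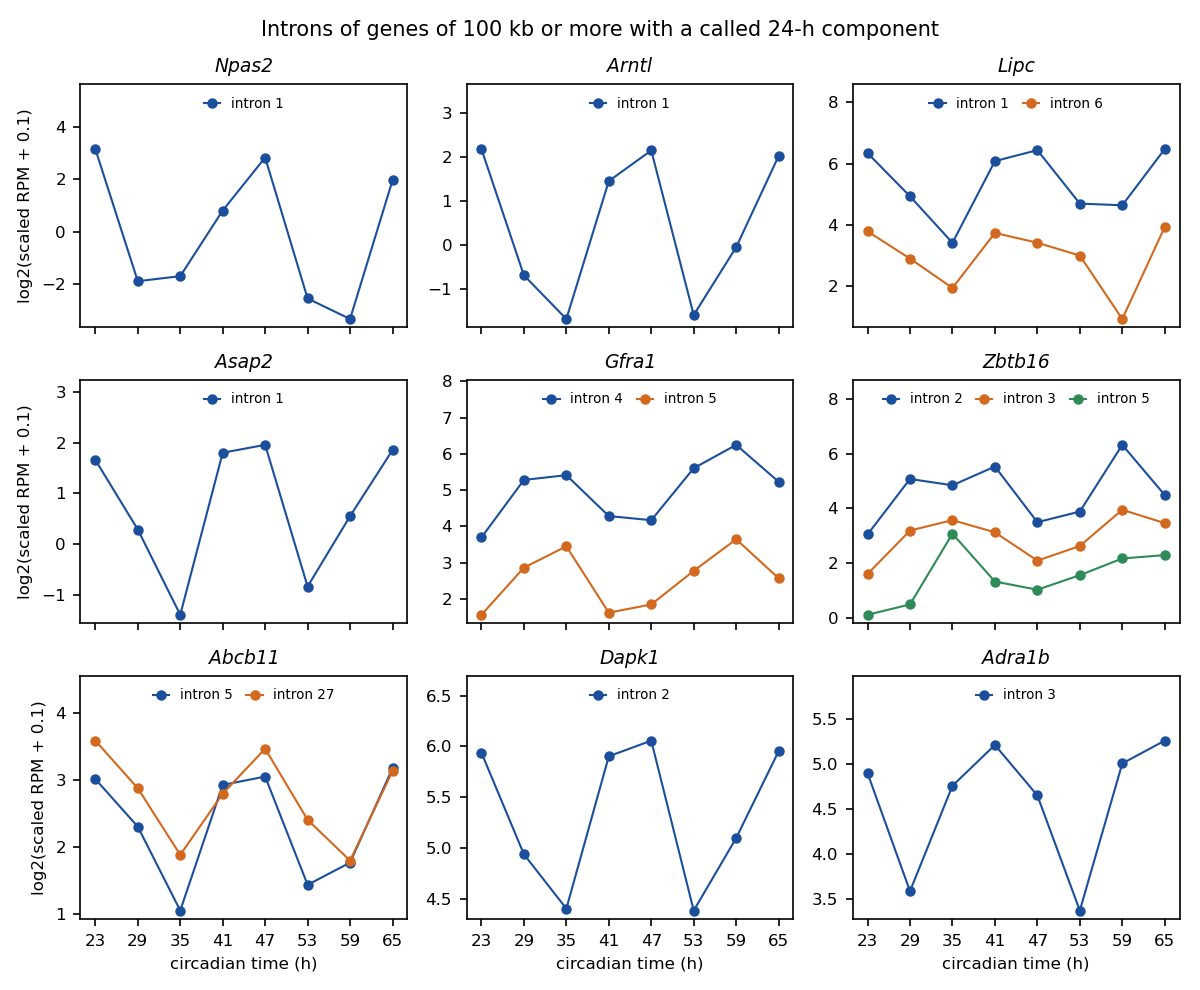
Level of the 14 called introns in each library, as log2 of scaled RPM plus 0.1, against circadian time in hours; each panel is a gene and each line an intron. Npas2, Arntl, Lipc, Asap2, Abcb11 and Dapk1 are higher at CT23, CT47 and CT65 than at CT35 and CT53, while Gfra1 is lowest at CT23 and highest at CT59.

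The largest swings were in introns of the clock genes. Intron 1 of Npas2 (chr1:39251588-39320163), which encodes a partner of BMAL1 in the activating arm of the clock, held 126 reads in CT23, 2 in CT29, 3 in CT35, 20 in CT41, 98 in CT47, 1 in CT53, 0 in CT59 and 57 in CT65. Its reads were thus almost all in the night libraries, and no day library reached the level of any night library. As scaled RPM this was 8.76, 0.17, 0.21, 1.65, 6.99, 0.07, 0.00 and 3.78 in the same order. The fitted peak was at 20.8 ± 0.5 h (SE, n = 8) with an adjusted p of 0.00202, and the fitted log2 swing of 6.57 depends on the pseudocount, because a trough library held no read. The call ended without CT23 (adjusted p = 0.106) and without CT47 (adjusted p = 0.0974).

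Intron 1 of Arntl (chr7:120351159-120378137), the gene of BMAL1, held 4.45 scaled RPM in CT23, 0.52 in CT29, 0.21 in CT35, 2.64 in CT41, 4.35 in CT47, 0.23 in CT53, 0.86 in CT59 and 3.98 in CT65. Night and day libraries did not overlap here either. The fitted swing was 18.4-fold with a peak at 20.1 ± 0.5 h and an adjusted p of 0.00257, and the call ended without CT47 (adjusted p = 0.0566). Gsk3b, a kinase that phosphorylates clock proteins, was the only other clock gene of this length with members, and its 3 introns were not called (lowest adjusted p 0.225). Btrc and Rora span 170 kb and 725 kb but had no member intron.

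Called introns of Lipc and Abcb11 also peaked in the subjective night. Intron 1 of Lipc (chr9:70671371-70782282), which encodes hepatic lipase, held 81.2 scaled RPM in CT23, 30.4 in CT29, 10.6 in CT35, 67.7 in CT41, 86.9 in CT47, 25.8 in CT53, 24.8 in CT59 and 89.0 in CT65. All 4 night libraries stood above all 4 day libraries. The swing was 6.89-fold, the peak 20.9 ± 0.6 h and the adjusted p 0.00366, and the call held without each single library in turn (highest adjusted p 0.0268), though not on the deposited RPKM scale (adjusted p = 0.0673). Intron 6 of Lipc, in the last section, was called as well, with a peak at 21.5 ± 0.8 h, and lost its call without CT23, CT41, CT59 or CT65 (adjusted p between 0.0559 and 0.128) and in edgeR (0.0636). The other 4 Lipc members had fitted peaks between 20.3 and 23.3 h and were not called.

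Abcb11, the bile salt export pump, had 16 members and 2 called introns. Intron 5 (chr2:69146604-69161888) held 8.00 scaled RPM in CT23, 4.84 in CT29, 1.97 in CT35, 7.52 in CT41, 8.21 in CT47, 2.60 in CT53, 3.30 in CT59 and 8.96 in CT65. It peaked at 20.6 ± 0.7 h (4.04-fold, adjusted p = 0.0239). Intron 27, the last of the gene, peaked at 22.3 ± 0.8 h (3.30-fold, adjusted p = 0.0262). Both calls ended without CT23, CT47, CT59 or CT65 (adjusted p between 0.0525 and 0.156). Introns are numbered along the main transcript. With the transcript of most reads in its place, numbers 5 and 27 can name other introns, so that setting is not given for Abcb11. Dapk1, a death-associated kinase, was called in intron 2 with a peak at 19.97 ± 0.77 h (3.42-fold, adjusted p = 0.0310). Asap2, a GTPase-activating protein for Arf, was called in intron 1 with a peak at 20.1 ± 0.7 h (8.38-fold, adjusted p = 0.0185). Asap2 lost its call without CT23, CT47 or CT65 (adjusted p between 0.0658 and 0.0901), and Dapk1 kept its call only without CT35 or CT59, losing it without each of the other 6 libraries (adjusted p between 0.0506 and 0.125) and with the upper deposited value (0.0537).

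Of the remaining called introns, those of Gfra1 and Zbtb16 peaked nearest CT11, and that of Adra1b nearest CT17, in the subjective night. Gfra1, a co-receptor for GDNF, was called in introns 4 and 5, which peaked at 9.68 ± 0.77 h and 9.57 ± 0.71 h. Intron 5 (chr19:58344654-58374731) held 2.85 scaled RPM in CT23, 7.17 in CT29, 10.8 in CT35, 2.97 in CT41, 3.50 in CT47, 6.74 in CT53, 12.4 in CT59 and 5.84 in CT65, so that all 4 day libraries stood above all 4 night libraries. Zbtb16, a zinc-finger transcription factor, was called in introns 2, 3 and 5, which peaked between 11.8 and 12.4 h. Adra1b, an adrenergic receptor of the hepatocyte, was called in intron 3 with a peak at 16.8 ± 0.8 h (3.39-fold, adjusted p = 0.0350). Without CT23 none of these 6 calls held, and the highest adjusted p over the single libraries left out was 0.269, for intron 2 of Zbtb16. That intron was just past the threshold (adjusted p = 0.0498) and also lost its call in 7 of the other settings. Adra1b lost its call in edgeR (adjusted p = 0.0645), and intron 5 of Zbtb16 with the upper deposited value (0.0539). For Gfra1, intron numbers under the main transcript by most reads need not name the same introns, so that setting is not given.

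In the finished messages, taken per transcript, a 24-h component was called in 15 of 405 genes with members and a tested transcript, which is 3.70% against 2.00% of all 10326 transcripts tested. The count was 3 without CT23, 4 without CT41, 5 without CT53, 7 without CT59 or CT65 and 8 without CT29. Of the 15, 4 also had a called intron. The transcript of Npas2 peaked at 23.4 ± 0.6 h, which is 2.63 ± 0.79 h after its intron 1. That of Arntl peaked 1.53 ± 0.65 h after its intron 1, that of Asap2 2.77 ± 0.95 h after, and that of Zbtb16 0.14 ± 1.01 h after its intron 3. These SE treat intron and transcript as independent, although both come from the same libraries, and no test of the difference was made.

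The transcripts of Abcb11 and Lipc were not called although introns of both were. The Abcb11 transcript had 47.9 RPKM in CT23, 61.8 in CT29, 39.3 in CT35, 37.5 in CT41, 63.2 in CT47, 54.3 in CT53, 30.5 in CT59 and 30.8 in CT65. Its fitted peak at 2.27 ± 0.94 h lay 5.68 ± 1.19 h after that of intron 5 (adjusted p = 0.118). The Lipc transcript stayed between 21.5 and 37.8 RPKM over the 8 libraries, with a 1.40-fold fitted swing and no call (adjusted p = 0.580). Celsr1, an adhesion receptor of planar polarity, and Slc4a4, a bicarbonate transporter, had called transcripts (adjusted p = 0.00453 and 0.0117, in that order) while their members with the smallest p were not called (adjusted p = 0.160 and 0.334 in the same order). Reads spliced across a member intron could be tested for 360 of them and gave 0 calls (edgeR quasi-likelihood test, against 0.381% of all 18106 junctions). At an unadjusted p under 0.05 there were 44 (12.2%, against 9.86% of all junctions), and DESeq2 called 2.

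To compare peak times at the far end and the start of a long gene, intron reads were summed over the last and over the first of the 3 equal sections. With polyadenylated RNA and libraries 6 h apart, this comparison cannot measure how long transcription takes along a gene. That delay was not tested. Each intron counted whole in the section of its midpoint, so a long intron can reach past its section. Intron 1 of Npas2, counted in the first section, has 68576 bases of a gene of 169 kb. Here every exon-free intron of a section was used, also those under 20 reads, because 117 genes alone have members in both. A mean of 20 reads in each section left 1061 genes, 240 of them 100 kb or longer, and 217 of the 240 hold a member. A 24-h component was called in the last section of 14 long genes (5.83%, against 7.07% of all 1061) and in the first section of 10 (4.17%, against 4.90%). Leaving out CT23 or CT47 gave 5 first sections, and CT29, CT53 or CT65 gave 6. Last sections numbered 5 without CT23, 6 without CT53, 7 without CT41, 8 without CT29 and 9 without CT47 or CT65. In 8 long genes both sections were called (3.33%, against 2.92% of all).

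**Figure D2:**
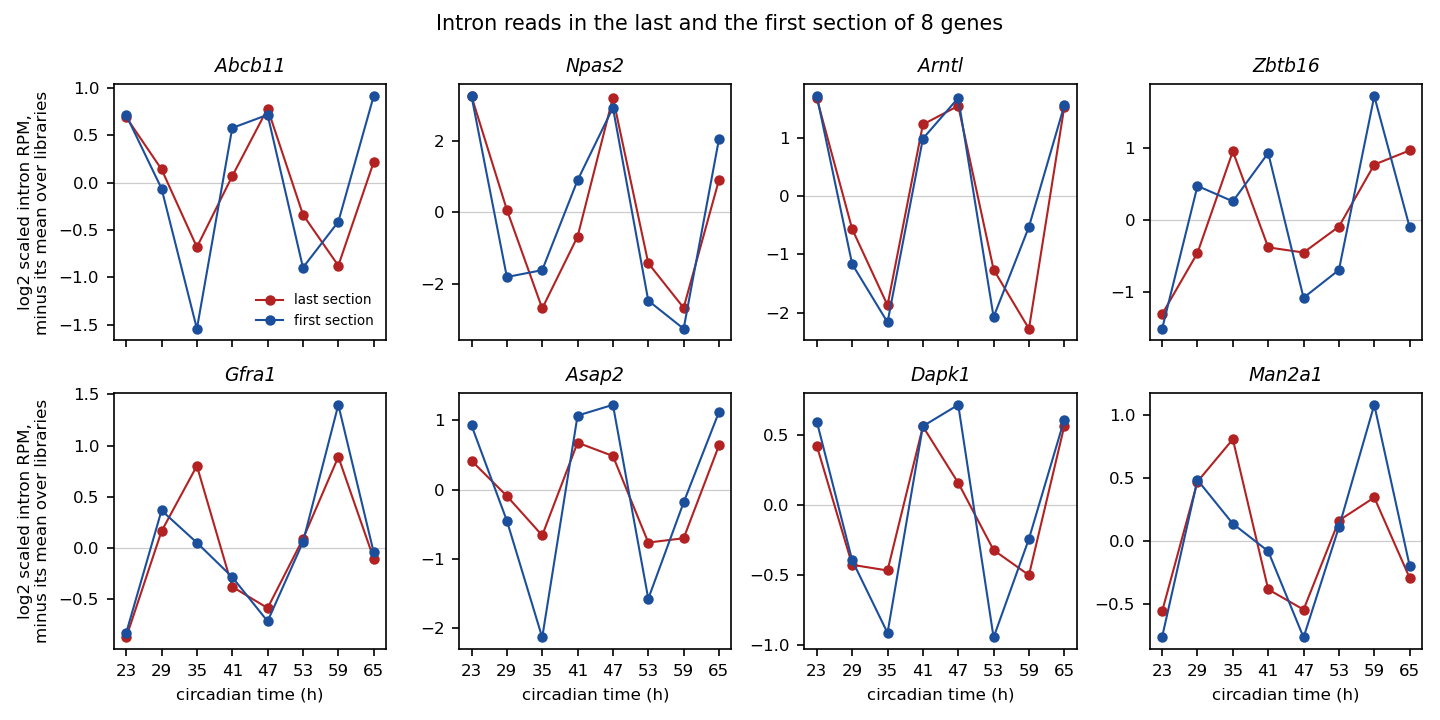
Summed intron reads of the last section (red) and the first section (blue) in each library for the 8 genes with both sections called, as log2 of scaled RPM plus 0.1 minus the mean over the 8 libraries, against circadian time in hours. In Npas2 the last section is above the first section at CT29 and CT53 and below it at CT41 and CT65.

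Over these 8 genes the median peak of the last section minus that of the first section was 0.20 h. It was above 0 in 5 genes and below 0 in 3, and ranged between -0.84 h for Man2a1, a mannosidase of the Golgi, and 1.79 h for Abcb11. The SE of a single difference had a median of 1.02 h, and only that of Npas2 exceeded 2 SE. For the 23 shorter genes with both sections called, the median was 0.37 h. At an unadjusted p under 0.05 in both sections, 16 long genes (6.67%, against 9.43% of all 1061) had a median of 0.56 h (11 above 0) and 84 shorter genes a median of -0.07 h (41 above 0). The difference between long and shorter genes was not tested. The median over called genes moved when a library was left out, being taken over the genes then called, and lay between 0.69 h without CT35 and 1.86 h without CT53.

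**Figure D3:**
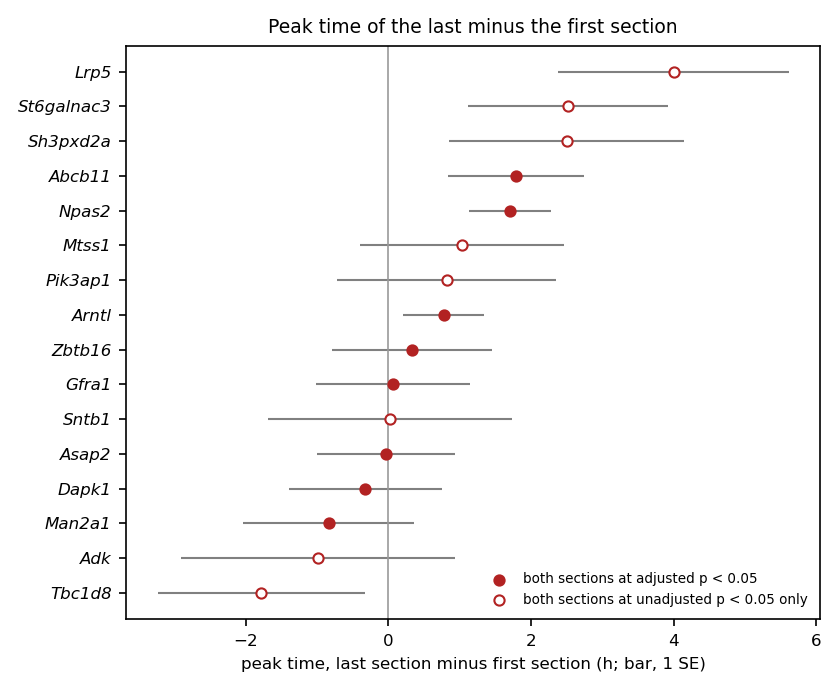
Peak time of the last section minus that of the first section in hours, with 1 SE, for the 16 genes of 100 kb or more in which both sections had an unadjusted p under 0.05; filled points are the 8 genes called in both. Npas2 at 1.70 h and Abcb11 at 1.79 h stand to the right of 0 by more than 1 SE, and Man2a1 at -0.84 h lies left of 0 within 1 SE.

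Npas2, the only gene past 2 SE, is given by library. Its last section held 10.0 scaled RPM in CT23, 1.04 in CT29, 0.07 in CT35, 0.58 in CT41, 9.78 in CT47, 0.31 in CT53, 0.07 in CT59 and 1.92 in CT65. Its first section, which is intron 1 alone, held 8.76, 0.17, 0.21, 1.65, 6.99, 0.07, 0.00 and 3.78 scaled RPM at the same times. On both days the first section was the higher at CT41 and CT65, before the peak, and the last section at CT29 and CT53, after it. At CT29 and CT53 the first section's 0.17 and 0.07 scaled RPM are only a few reads. At CT35 the first section was the higher and at CT59 the last section, both near 0.

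The fitted peaks of Npas2 were 22.5 ± 0.4 h in the last section and 20.8 ± 0.4 h in the first section, a difference of 1.70 ± 0.58 h. It lay between 1.46 and 1.97 h with each library left out and between 1.06 and 1.71 h in the other settings. In the ratio of the 2 sections within each library, a 24-h component was called in Npas2 alone among the 240 long genes (0.417%, against 0.189% of all 1061), with an adjusted p of 0.0261. At an unadjusted p under 0.05 there were 17 (7.08%, against 6.13%). The ratio test takes peak time and swing together, so a trough of unlike depth in the 2 sections can also give a component. The call ended without CT29 (adjusted p = 0.272), without CT41 (0.0748) and without CT65 (0.124), in edgeR with the library as a block (0.147), and with pseudocounts of 0.02 (0.547) and 0.5 (0.106). It also ended without a read limit (0.927), with 2 sections in place of 3 (0.703), with the main transcript by most reads (0.0836) and with a variance trend on the mean reads (0.189). It held with the upper deposited value (0.000342), the day as a block (0.00372) and each other library left out. Library scale cancels in the ratio apart from the pseudocount, so the deposited RPKM scale (0.0179) and TMM (0.0256) are no separate check. The 15 introns of the last section are all under the limit of 20 reads, so none of them is a member.

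The other called genes gave smaller or less certain differences. The last section of Abcb11 peaked at 22.4 ± 0.6 h and its first section at 20.6 ± 0.7 h, and the difference of 1.79 ± 0.95 h stayed between 1.42 and 2.57 h over all settings, while the ratio was not called (unadjusted p = 0.10). In Arntl the sections peaked at 20.9 ± 0.3 h and 20.1 ± 0.5 h, last and first, a difference of 0.78 ± 0.57 h, which was 0.17 h without CT59 and up to 1.13 h without another library. Zbtb16, Gfra1, Asap2 and Dapk1 had differences of 0.34, 0.06, -0.03 and -0.33 h with SE between 0.97 and 1.12 h, and in none of the 4 did the sign hold over the libraries left out. The difference of Zbtb16 was -1.26 h without CT65, -0.81 h without CT29 and 2.16 h without CT41. That of Gfra1 lay between -0.32 and 0.48 h, that of Asap2 between -0.76 and 0.69 h and that of Dapk1 between -0.97 and 0.20 h, while Man2a1 stayed below 0, between -1.44 and -0.29 h. In all 4, and in Man2a1, at least 1 section lost its call when 1 of several libraries was left out. With member introns alone, 117 genes had both sections, and the 2 called in both were Abcb11 (1.53 h) and Zbtb16 (0.34 h).

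Of the 40 genes with 5 or more members, Abcb11 and Dpyd were followed along their length. The others were not followed in this way, so how common the patterns below are is not shown. The 3 members in the first section of Abcb11 peaked between 20.6 and 20.9 h, the 10 in the middle section between 19.5 h and 1.61 h of the next cycle, and the 3 in the last section between 22.1 and 22.3 h. In Dpyd, which encodes the first enzyme of pyrimidine breakdown and spans 871 kb, the fitted log2 swing was 1.14, 1.41 and 0.91 in the 3 members of the first section and between 0.13 and 0.76 in the 12 others. None of the 15 Dpyd introns was called (lowest adjusted p 0.189), and the ratio of its sections was not called either (unadjusted p = 0.0456, adjusted p = 0.758). None of the 37 members of Cps1, the entry enzyme of the urea cycle, was called (lowest adjusted p 0.168).

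**Figure D4:**
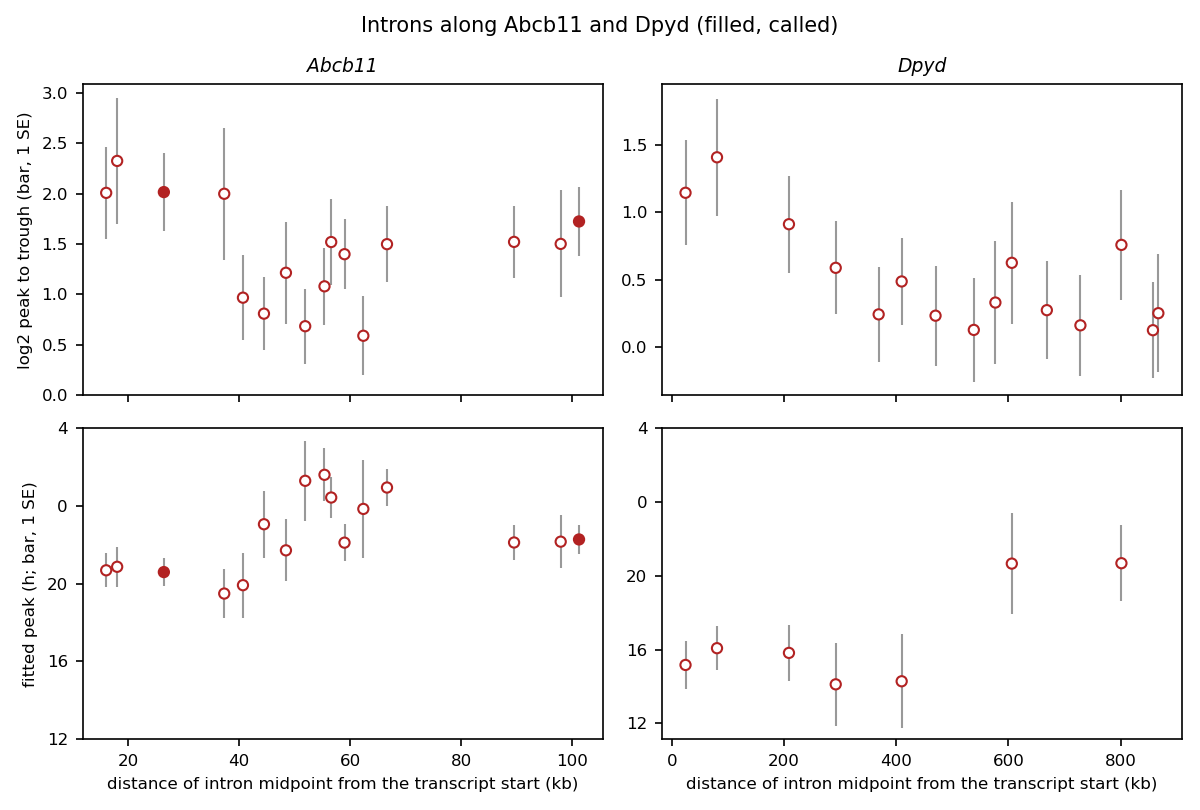
Fitted log2 peak-to-trough difference (top) and fitted peak in hours (bottom), each with 1 SE, of member introns against the distance of their midpoint from the transcript start in kb, for Abcb11 (left) and Dpyd (right); filled points are called and peaks with an SE over 3 h are not drawn. The peaks of Abcb11 lie near 20.7 h in the first section and near 22.2 h in the last section, and the swing of Dpyd is above 0.9 in its first 3 members only.

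Among the 10 longest genes with both sections, none was called in both. St6galnac3, a sialyltransferase gene of 523 kb, peaked at 1.37 ± 1.07 h in the last section (adjusted p = 0.106) and 22.8 ± 0.9 h in the first section (adjusted p = 0.0361). For 8 others the SE of the difference lay between 2.98 and 10.7 h.

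Intron reads were denser toward the end of most genes. Per kb of intron, the last section was called denser than the first section in 157 of 240 long genes (65.4%, against 70.3% of all 1061). It was called less dense in 29 (12.1%, against 13.5%; limma test of the mean log2 ratio, adjusted p under 0.05). Whether called or not, it was denser in 190 of the 240. The median log2 difference was 0.72 in long genes and 1.07 in shorter genes. Among the long genes the median was lower in the longer classes: 1.05 in 112 genes of 100 to 150 kb, 0.67 in 42 of 150 to 200 kb, 0.50 in 48 of 200 to 300 kb, 0.32 in 25 of 300 to 500 kb, and -0.29 in 13 of 500 kb or more. Across the 240 genes the Spearman correlation of the difference with span was -0.40, a description over genes that share the 8 libraries. The median was 1.19 in CT35, 0.44 in CT59 and between 0.54 and 0.84 in the other 6 libraries, and the part of RNA quality or annotation in the gradient was not tested.

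**Figure D5:**
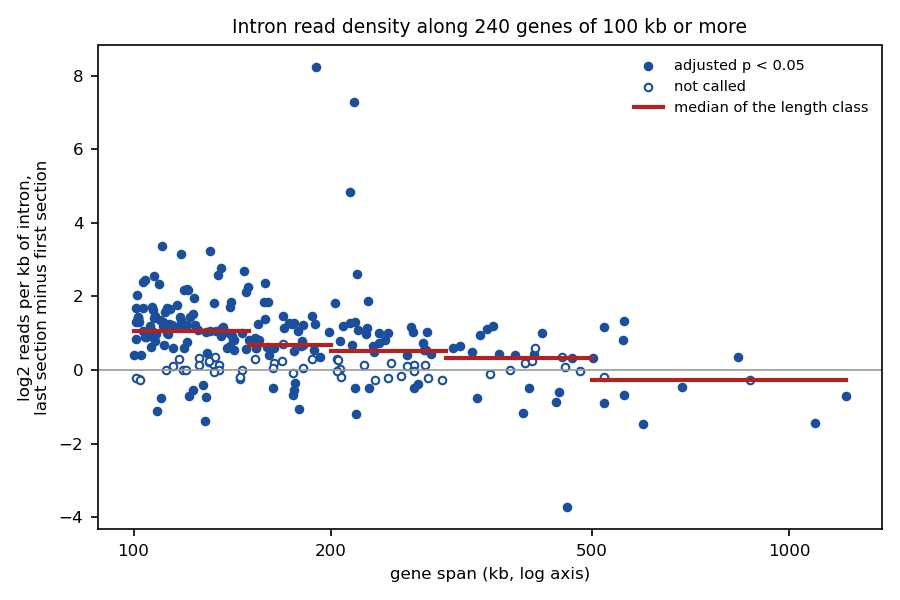
Log2 reads per kb of intron in the last section minus the first section against gene span in kb on a log axis, for 240 genes of 100 kb or more; filled points are called and red lines are medians of length classes. The median is 1.05 at 100 to 150 kb and -0.29 at 500 kb and more, with Jarid2 and Peak1 at the top and Gphn at the bottom.

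The genes at the extremes held single introns with very many reads. Jarid2, a cofactor of Polycomb complex PRC2, was denser in its last section by 8.22 ± 0.20 log2 (adjusted p = 3.68e-19), and its intron 4 (chr13:44943791-44969651) held 14000 mean reads, 14.4% of all member reads. At 39.0 RPKM this intron stood above its own transcript at 1.82 RPKM. Peak1, a pseudokinase of the cytoskeleton, was denser in its last section by 7.27 ± 0.76 log2 (adjusted p = 3.15e-05), with 5413 mean reads in intron 6 and 18.5 RPKM there against 1.86 RPKM in the transcript. Only 7 members in all were denser than their transcript, 3 of them in Fras1. Junction reads inside the Jarid2 and Peak1 introns numbered 7 and 15 over all libraries.

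The reads of Peak1 intron 6 varied widely, at 118 scaled RPM in CT23, 321 in CT29, 1267 in CT35, 496 in CT41, 25.3 in CT47, 520 in CT53, 447 in CT59 and 35.1 in CT65. The fitted swing of 17.3-fold was not called (unadjusted p = 0.0259, adjusted p = 0.238), with CT23 and CT47 and CT65 low and CT41 high. Jarid2 intron 4 was between 658 scaled RPM in CT23 and 1737 in CT35 and was not called (adjusted p = 0.797). Next came Tns1 (4.84 ± 0.14 log2), Bcar3 (3.36 ± 0.17) and Susd4 (3.24 ± 0.21), denser in the last section in all 8 libraries. At the other end, Gphn, which makes the molybdenum cofactor in liver, was less dense in its last section by a log2 difference of -3.73 ± 0.20 (adjusted p = 7.84e-14), with 2827 mean reads in intron 2. Lpp (-1.47 ± 0.15), Prkg1 (-1.43 ± 0.16), Mbnl1 (-1.38 ± 0.17) and Ptk2 (-1.21 ± 0.18) followed. The calls of these 10 genes held with each library left out.

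The functional groups are small, and their calls stand beside 2.61% of all introns called and 15.5% at an unadjusted p under 0.05. Of the nuclear receptors and coregulators, 13 genes were long enough and 8 had 13 members, of which 0 were called (limma, 0 also at an unadjusted p under 0.05), with a median log2 swing of 0.41 against 0.59 over all members. Intron 1 of Thrb, the beta thyroid hormone receptor, with 427 mean reads, stayed between 23.2 and 40.2 scaled RPM, and the smallest adjusted p of the group was 0.532, for intron 5 of the mineralocorticoid receptor gene Nr3c2. Among other liver transcription factors, 22 members in 12 genes gave 3 calls, all in Zbtb16, and intron 1 of Tox, a thymocyte selection factor, followed at an adjusted p of 0.0602. Lipid and sterol genes gave 2 calls of 27 members in 8 genes, both in Lipc, and intron 21 of Lrp5, a Wnt co-receptor, followed (adjusted p = 0.0739).

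No call was made in the other groups, whose counts at an unadjusted p under 0.05 likewise stand beside 15.5% of all introns. Insulin, growth factor and cAMP signalling had 24 members in 10 genes with 1 at an unadjusted p under 0.05, in Pik3c2g. Amino acid, nucleotide, carbohydrate and cofactor enzymes had 82 members in 7 genes and 7 at that level, with intron 3 of the glycogen branching enzyme Gbe1 at an adjusted p of 0.0892. Adhesion, cytoskeleton and scaffold genes had 31 members in 14 genes and 2 at that level, with intron 52 of dystonin (Dst) at an adjusted p of 0.122. Very long genes at fragile sites had 26 members in 2 genes, Dpyd and Gphn, and 2 at that level. RNA processing and chromatin genes had 20 members in 12 genes and 0 at that level, with a median log2 swing of 0.36.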

How the data were processed

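Polyadenylated liver RNA of 8 pooled libraries was measured. Per the file headers, the deposited tables give each annotated exon, intron and transcript a lower (min) and upper (max) value to 4 decimals, which scale as RPKM. Read counts across splice junctions were deposited as whole numbers. The build is mm9, per the submitters' processing notes. No source used here names the counting program, and the labels' protocols describe no step that marks strand.

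Reads per intron were recovered from the lower value, length and depth. Within 0.1 read, 100% of low introns came out whole, and rounding leaves at most 0.56 read. RPM plus 0.1 were taken to log2 after scaling by the median ratio over introns. limma 3.58.1 (R 4.3.3) fitted a 24-h cosine with a variance trend, robust. Transcripts used log2(RPKM + 0.5), junction counts edgeR 4.0.16. Peak SE are by the delta method, and those of differences treat both values as independent. All p-values were adjusted over all features tested. Thresholds are an adjusted p of 0.05.

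Genes named are the called introns of smallest p, genes with both sections called, the 10 longest, clock and receptor genes, the largest density differences and up to 4 genes a list. One of the longest genes is not reported here. The members, lists and settings were chosen with earlier results of these data known. Scripts were tested on simulated data. 5 members overlap an intron of another gene. Where the main transcript is instead the one with most reads, the rule gives 1519 introns in 675 genes.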

Additional observations from a re-analysis of the deposited data

Results flagged for a closer look

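The 24-h time course differed between the last and the first section of Npas2 (adjusted p = 0.0261 for the ratio of the 2 sections, limma, over 1061 genes), the only gene of 100 kb or more for which this was called. The last section was relatively higher at CT29 and CT53, where the first section held few reads, and the first section at CT41 and CT65. This test does not separate peak time from swing. The adjusted p lay between 0.000342 and 0.927 over the other settings.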

How the results depend on the processing

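The counts of calls depended on the scale, the read limit and single libraries. Introns called numbered 14, and 9 with a limit of 50 reads, 70 without a limit, 2 on the deposited RPKM scale, 8 and 2 for spans of 150 and 200 kb, and 28 with the main transcript by most reads (chosen after seeing the data). First sections called numbered 10, and 6 with the upper deposited value, 3 on the RPKM scale, 2 with introns wholly within a section and 3 with member introns alone (added after seeing the data). Last sections called numbered 14, and 9 with 50 reads, 5 on the RPKM scale, 6 wholly within a section and 6 with member introns alone. The ratio calls became 0 with pseudocounts of 0.02 or 0.5, no limit, 2 sections in place of 3 or edgeR. They became 0 as well with the most-read transcript or a variance trend on the mean reads, both added after seeing the data. With 50 reads, introns within a section or member introns alone (the last added after seeing the data) they were also 0, but Npas2 was not tested there. With the day as a replicate block they numbered 2. Results under both variance trends were known when limma's default one was kept for the reported ratio.

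Density calls numbered 186, and 76 with 50 reads, 477 without a limit, 105 within a section, 284 with the most-read transcript and 92 with member introns alone, as fewer or more genes entered. The median peak difference was 0.20 h, and 1.28 h with introns within a section. Junction calls numbered 0, 5 without a limit and 2 in DESeq2. Transcript calls numbered 15, 2 without a filter and 8 with the day as a replicate block, under which introns called numbered 17. Leaving out 1 library gave 2 to 34 introns, 5 to 12 first sections, 5 to 12 last sections, 0 to 2 ratio calls, 179 to 196 density calls, 0.69 to 1.86 h, 0 junctions and 3 to 15 transcripts. Counts have no sign to turn, but the single-gene peak differences of Zbtb16, Gfra1, Asap2 and Dapk1 changed sign when some libraries were left out. The labels give no replicate numbers, so the block rests on the day of each phase. With 1 pool a time, the fit has 5 residual degrees of freedom, and the smallest fitted log2 swing among the called introns was 1.72.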
